A study of Mus musculus with 4 samples.

Results

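Keratins of the dental epithelium were examined as 7 genes, Krt5, Krt14, Krt15, Krt17, Krt8, Krt18 and Krt19, out of 32285 genes counted in the incisor. They were taken by symbol. The question was how these genes differed between epithelial cells that secrete enamel matrix and the other epithelial cells, and between genotypes. Cells came from the proximal end of the lower incisor of mice at postnatal day 15, where the continuously growing tooth renews itself. Single-cell libraries were made with 10x Genomics reagents that tag transcript 3' ends, and a unique molecular identifier (UMI) lets each captured transcript be counted once. WT mice gave 2 libraries and Din-KO mice gave 2 libraries. Din-KO mice carry a germline gene-trap allele of the gene Din (4930453N24Rik), with a LacZ reporter under its promoter and an exon removed by a germline Cre. Din itself was not analysed here, so the genotype labels were not checked against it. Neither the strain nor the number of mice behind a library was given in the sources used here, and p-values measure only the spread between these libraries. In the comparison of epithelial classes that is the spread of the difference within a library.

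Keratins are the intermediate filament proteins of epithelia. Each filament is built from type I and type II chains in equal numbers, so that Krt5 (type II) pairs with Krt14 (type I) in basal layers and Krt8 (type II) with Krt18 (type I) in simple epithelia. Krt15, Krt17 and Krt19 are further type I chains: Krt15 marks basal and follicle stem cells, Krt17 marks epithelial appendages and stressed epithelium, and Krt19 lacks most of the tail. Ameloblasts are the tall epithelial cells that secrete enamel proteins. They arise from the cervical loop, where progenitor, cycling and supporting layers also lie.

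In GRCm38 the type I genes other than Krt18 lay on the minus strand of chromosome 11. Krt15 spanned 100131758 to 100135928, Krt19 100140810 to 100148665, Krt14 100203162 to 100207548 and Krt17 100256217 to 100261029. On chromosome 15 the type II genes Krt5 (101707070 to 101712898) and Krt8 (101996698 to 102004482) lay on the minus strand, and Krt18 (102028180 to 102032027) lay on the plus strand, 23.7 kb beyond Krt8. All 7 are annotated as protein-coding genes by GENCODE M21.

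Promoter windows of 2 genes from RefSeq (GRCm38.p6) are shown, of Krt5, the most widely detected type II gene here, and of Krt18, a type I gene that was lower in enamel-secreting cells under every setting tried. Each is given 5′ to 3′ on the strand of its gene and ends before the first base of the gene in RefSeq and GENCODE. The windows were chr15:101712906-101713155 on the minus strand for Krt5 and chr15:102027966-102028179 on the plus strand for Krt18.
Krt5: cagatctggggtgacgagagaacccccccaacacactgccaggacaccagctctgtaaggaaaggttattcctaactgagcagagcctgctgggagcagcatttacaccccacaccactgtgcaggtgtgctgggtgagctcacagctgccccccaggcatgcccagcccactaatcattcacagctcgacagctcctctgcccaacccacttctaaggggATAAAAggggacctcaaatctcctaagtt
Krt18: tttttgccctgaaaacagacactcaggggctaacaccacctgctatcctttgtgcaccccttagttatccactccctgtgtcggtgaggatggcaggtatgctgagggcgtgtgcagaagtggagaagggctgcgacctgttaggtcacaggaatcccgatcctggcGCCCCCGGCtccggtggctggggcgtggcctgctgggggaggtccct
The capitals mark matches to letters searched on both strands. The TATA box was searched as TATAAA. An A-rich variant that can overlap it, ATAAAA, was added after the windows had been read. The GC box was searched as GGGCGG. The AP-1 site was searched as TGANTCA and the AP-2 site as GCCNNNGGC. Krt5 held ATAAAA 29 bases before its RefSeq start, letters that 17.0% of all 32851 windows of that length held. Krt18 held GCCNNNGGC 83 bases before its RefSeq start, letters that 11.5% of all windows of its length held. The TATA box, GC box and AP-1 letters were in neither window. Of the 7 genes, 4 had a window in the table. Those of Krt14 and Krt8 lay at other starts inside the annotated gene and are not shown.

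The 4 libraries held 32198098 to 54348039 UMIs, and 11310 cells passed the filters. Pairs of libraries shared 4 to 12 barcodes, 0 to 4 of them among kept cells. Clusters formed without keratin genes gave 576 epithelium-like cells, 143 and 121 in WT and 177 and 135 in Din-KO. All 10 epithelial markers were detected in every library. An epithelial cell was called enamel-secreting when Amelx, Ambn, Enam and Mmp20 together made up at least 1% of its UMIs, which gave 271 cells. The other 305 cells are called other epithelial cells. Only 29 cells lay between 0.3% and 5%. The WT libraries held both the lowest and the highest share of enamel-secreting cells. Enamel-secreting cells were 15.4% (exact 95% interval 9.90 to 22.4) of epithelial cells in WT replicate 1, 80.2% (71.9 to 86.9) in WT replicate 2, 37.9% (30.7 to 45.4) in Din-KO replicate 1, and 63.0% (54.2 to 71.1) of those of Din-KO replicate 2. WT replicate 2 had 24 other epithelial cells. These were shallow, with a median of 4764.5 UMIs, and held 3354 mesenchyme marker counts per 1000000 UMIs (CPM), against 337 to 1134 in the other 7 sums and at least 10173 in mesenchyme-like cells; the part of such RNA in the results was not tested. Without WT replicate 2, 4 of the 5 calls between the classes held, and Krt5 was lost.

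Krt14 and Krt5 were the most abundant members in the enamel-secreting cells of all 4 libraries. In enamel-secreting cells Krt14 supplied 65.4% ± 3.04 (SD, n = 4 libraries) of the UMIs of the 7 genes, Krt5 28.2% ± 3.24, Krt17 4.59% ± 3.07, Krt8 1.44% ± 0.329 and Krt18 0.317% ± 0.105. In other epithelial cells Krt14 supplied 30.6% ± 8.52, Krt5 29.5% ± 5.40, Krt17 19.6% ± 9.78, Krt15 12.5% ± 16.2, Krt18 5.11% ± 1.87 and Krt8 2.67% ± 1.18. UMIs count 3' ends, 1 per captured molecule, so they were not scaled by transcript length. The order was Krt14, Krt5, Krt17, Krt8 and Krt18 in enamel-secreting cells of all 4 libraries. In other cells the ranges of Krt14, Krt5 and Krt17 overlapped. Krt17 led in other cells of WT replicate 1, with 32.8% of member UMIs, and Krt15 led in those of WT replicate 2, with 36.7%, all from 1 cell.

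**Figure D1:**
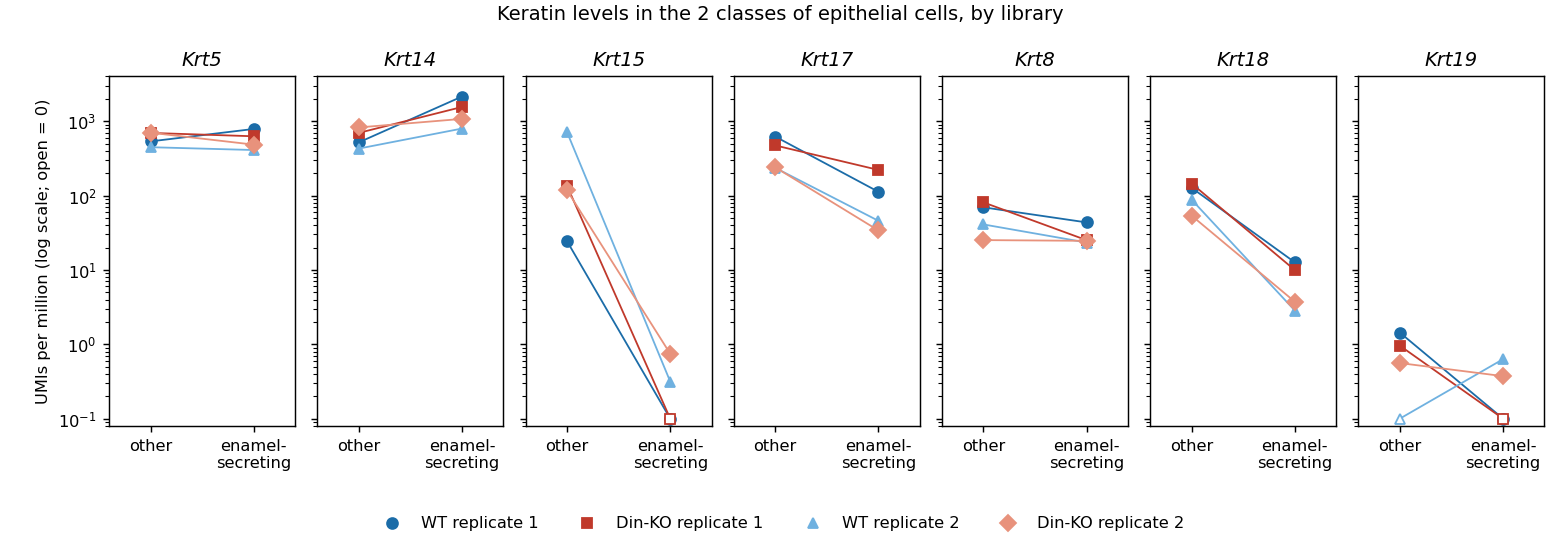
CPM (log axis) of each keratin in other and enamel-secreting epithelial cells, with a line joining the 2 sums of a library and open symbols for sums without a UMI. Krt14 was higher and Krt15, Krt17 and Krt18 were lower in the enamel-secreting cells of all 4 libraries, whereas the lines of Krt5 crossed. Enamel genes count in the total of this CPM. Without them Krt5 was higher in enamel-secreting cells of all 4 libraries.

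Krt14, the basal type I chain, was higher in enamel-secreting cells. WT replicate 1 had 2148 CPM in enamel-secreting and 519 CPM in other cells. WT replicate 2 had 797 and 428 CPM. Din-KO replicate 1 had 1554 and 696 CPM, and Din-KO replicate 2 had 1074 and 825 CPM. Krt14 was higher in the enamel-secreting cells of every library, although the 2 classes overlapped across libraries. On sums per library, with library as a term, the log2 difference was 1.80 (SE 0.22, edgeR quasi-likelihood adjusted p = 0.000753), and all 18 alternatives kept the call.

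Krt5, the basal type II chain, differed less than Krt14. It had 787 CPM in enamel-secreting and 535 CPM in other cells of WT replicate 1. The other libraries went the opposite way on this scale, with 410 and 447 CPM in WT replicate 2, 627 and 696 CPM in Din-KO replicate 1, and 484 and 700 CPM in Din-KO replicate 2. The direction of Krt5 depended on the scaling. In CPM computed without the 4 enamel genes it was higher in enamel-secreting cells of all 4 libraries. WT replicate 1 then had 900 and 535 CPM, and WT replicate 2 had 670 and 448 CPM. Din-KO replicate 1 had 859 and 696 CPM, and Din-KO replicate 2 had 753 and 701 CPM. TMM-scaled CPM of Krt5 was also higher in enamel-secreting cells of all 4 libraries. With TMM factors, which were 0.694 to 0.902 in enamel-secreting and 1.19 to 1.34 in other sums, the log2 difference was 0.61 (SE 0.17, edgeR adjusted p = 0.0239). Without them it was -0.069 (SE 0.22, edgeR adjusted p = 0.80). The factors moved the median of all genes from -0.73 to -0.06, and Krt5 stood 0.67 above that median with TMM and 0.66 above it without. Leaving out WT replicate 1, Din-KO replicate 1 or WT replicate 2 ended the call (edgeR adjusted p = 0.0661, 0.0675 and 0.0920).

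The ratio of the partners needs no scaling, since both are counted in the same cells. Krt14 and Krt5 had nearly equal UMIs in other epithelial cells, with 0.970 Krt14 UMIs per Krt5 UMI in WT replicate 1, 0.958 in WT replicate 2, 1.00 in Din-KO replicate 1 and 1.18 for Din-KO replicate 2. In enamel-secreting cells the ratio was 2.73, 1.94, 2.48 and 2.22 in the same order. The 2 classes did not overlap. The log2 ratio was higher by 1.18 ± 0.26 (SD, n = 4) in enamel-secreting cells, in 4 of 4 libraries, and the exact paired permutation test gave the smallest two-sided p that 4 pairs allow (0.125). The sum of type I over type II members did not separate the classes. It was 2.40 ± 0.396 in enamel-secreting and 2.18 ± 0.582 in other cells (SD, n = 4), and it was higher in enamel-secreting cells of 3 of 4 libraries. The exception was WT replicate 2, where 1 cell gave 228 Krt15 UMIs to the other cells. Without the highest doublet scores, the ratio was 2.42 ± 0.395 and 1.94 ± 0.235, again higher in 3 of 4 libraries. The log2 difference of WT replicate 2 then moved from -0.62 to -0.12.

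**Figure D2:**
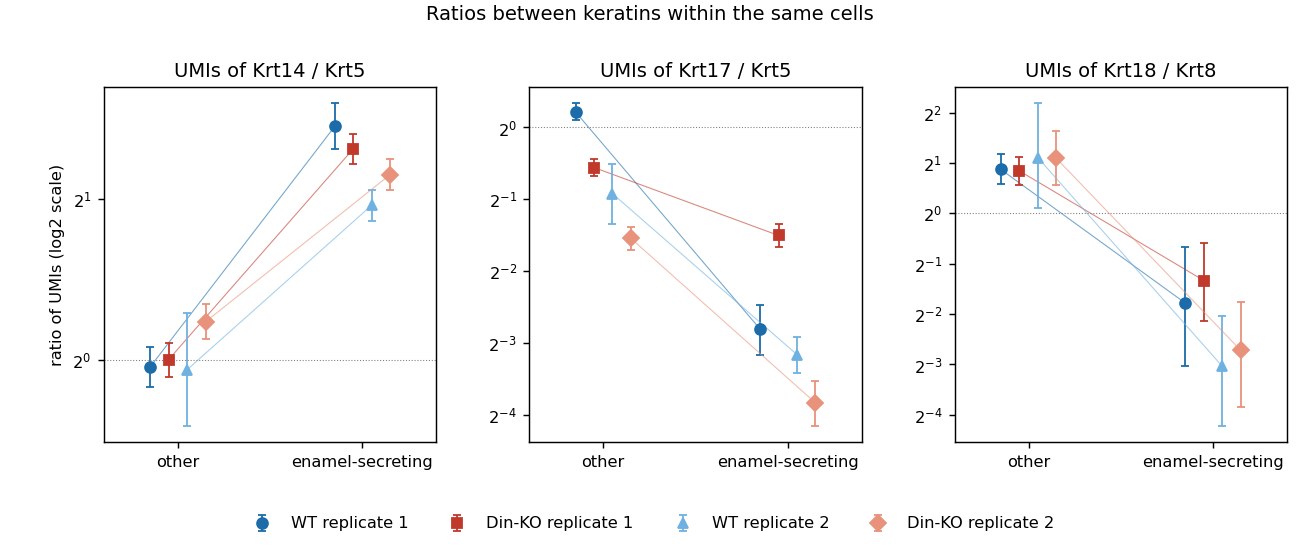
Ratios of summed UMIs (log2 axis) in other and enamel-secreting epithelial cells of each library, with exact binomial 95% intervals as error bars. Krt14 per Krt5 was 0.958 to 1.18 in other and 1.94 to 2.73 in enamel-secreting cells, and Krt18 per Krt8 was 1.79 to 2.15 and 0.122 to 0.396.

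Krt17, the type I chain of epithelial appendages, was lower in enamel-secreting cells. It had 112 CPM in enamel-secreting and 622 CPM in other cells of WT replicate 1, 45.8 and 236 CPM in WT replicate 2, 221 and 473 CPM in Din-KO replicate 1, and 33.9 and 240 CPM in Din-KO replicate 2. On this scale the 2 classes did not overlap. In TMM-scaled CPM they did, since enamel-secreting cells of Din-KO replicate 1 had 270. Other cells had 176 in WT replicate 2 and 190 in Din-KO replicate 2. The log2 difference was -1.50 (SE 0.28, edgeR adjusted p = 0.00499). In Din-KO replicate 1, a single cell held 216 of the 467 Krt17 UMIs of its enamel-secreting cells, and the level without it was 122 CPM. Epithelial cells chosen one by one in place of clusters ended the call (-0.78, edgeR adjusted p = 0.173).

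Krt18, the simple-epithelium type I chain, was lower in enamel-secreting cells by a wide margin. It had 12.6 CPM in enamel-secreting and 127 CPM in other cells of WT replicate 1, 2.84 and 88.2 CPM in WT replicate 2, 9.95 and 145 CPM in Din-KO replicate 1, and 3.73 and 53.7 CPM in Din-KO replicate 2. The classes did not overlap. The log2 difference was -3.29 (SE 0.23, edgeR adjusted p = 8.9e-05), and all 18 alternatives kept the call.

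Krt8, the type II partner of Krt18, differed less. It had 43.5 CPM in enamel-secreting and 69.5 CPM in other cells of WT replicate 1, 23.4 and 40.9 CPM in WT replicate 2, 25.1 and 81.0 CPM in Din-KO replicate 1, and 24.6 and 25.2 CPM in Din-KO replicate 2. On this scale it was lower in the enamel-secreting cells of all 4 libraries. With TMM factors the log2 difference was -0.16 (SE 0.29, edgeR adjusted p = 0.696), which did not pass. Without them it was -0.83 (SE 0.28, edgeR adjusted p = 0.0339). Krt18 per Krt8 was 1.83, 2.15, 1.79 and 2.13 in other cells of WT replicate 1, WT replicate 2, Din-KO replicate 1 and Din-KO replicate 2, and 0.290, 0.122, 0.396 and 0.152 in enamel-secreting cells. The enamel-secreting ratios rested on 9 to 21 Krt18 UMIs each. In log2 they were lower by 3.20 on average (SD 0.93, n = 4), in 4 of 4 libraries, with the exact paired permutation p again at 0.125.

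Krt15, a marker of basal stem cells, was carried by few cells and almost all of them were other epithelial cells. It had 51, 228, 284 and 211 UMIs in the other cells of WT replicate 1, WT replicate 2, Din-KO replicate 1 and Din-KO replicate 2, which is 24.5, 718, 136 and 118 CPM. Enamel-secreting cells held 0, 1, 0 and 2 UMIs. No fold could be measured in WT replicate 1 and Din-KO replicate 1, where enamel-secreting cells held 0 UMIs. With a floor of 3 UMIs assumed in place of 0, Krt15 would be 5.80-fold and 95.8-fold lower there. The lower limits of the counting intervals there were 4.55-fold and 77.4-fold. In Din-KO replicate 2 Krt15 was 158-fold lower, with a counting interval of 43.3 to 1316. The edgeR adjusted p was 3.85e-05, and all 18 alternatives kept the call. With 0 to 2 UMIs in each enamel-secreting sum, Krt15 passed the filter on low counts only through other cells. A lower call was therefore largely set in advance and adds no support to the counts. The levels among other cells depended on single cells. All 228 UMIs of WT replicate 2 lay in 1 cell of 84558 UMIs, which was among the highest doublet scores of its library, so without it the level there was 0. In Din-KO replicate 2, 135 of 211 UMIs lay in 1 cell. Cells with a Krt15 UMI numbered 8 of 121, 1 of 24, 21 of 110 and 4 of 50 in the same order of libraries.

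Krt19 was close to undetected. The other cells held 3, 0, 2 and 1 UMIs in WT replicate 1, WT replicate 2, Din-KO replicate 1 and Din-KO replicate 2, and the enamel-secreting cells held 0, 2, 0 and 1. It did not pass the filter on low counts, and no difference was detectable at this depth.

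Among the members, 6 of 7 passed the filter on low counts, and Krt15, Krt17 and Krt18 (3) were called lower and Krt5 and Krt14 (2) higher in enamel-secreting cells. Krt15 passed that filter only through other cells, so its call was largely set in advance. Over all 11236 genes tested, 17.1% were called lower and 17.1% higher, so a call alone was common in this comparison. The median log2 difference was -0.83 for the 6 members and -0.06 for all genes. Without TMM factors 5256 genes were called lower and 855 higher, in place of 1918 and 1917.

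The levels also varied within the enamel-secreting cells, along the share of UMIs from enamel genes. Cells of all libraries were summed in 5 ranges of that share, in CPM computed without the 4 enamel genes. Krt14 had 601 CPM in the 270 cells under 0.1%, 1178 CPM in the 35 cells from 0.1% to 1%, 3156 CPM in the 38 cells from 1% to 10%, 2679 CPM in the 69 cells from 10% to 30%, and 848 CPM in the 164 cells above 30%. Krt5 had 613, 790, 1355, 958 and 514 CPM over the same ranges. Both were thus highest in cells with an intermediate enamel share, and the amplitude was larger for Krt14. Their ratio was 0.980, 1.49, 2.33, 2.80 and 1.65. Krt18 had 120, 24.5, 29.7, 11.8 and 1.28 CPM, and Krt17 had 458, 328, 97.4, 283 and 50.7 CPM. The 283 CPM of Krt17 from 10% to 30% rested on Din-KO replicate 1, at 582 CPM, against 108 CPM in WT replicate 1, 167 CPM in WT replicate 2 and 56.1 CPM in Din-KO replicate 2. Above 30%, 31 cells came from Din-KO replicate 1, with a ratio of 2.35, 79 from WT replicate 2, with 1.46, and 53 from Din-KO replicate 2, with 1.58. WT replicate 1 had 1 cell there. From 10% to 30% the ratio was 2.73 in WT replicate 1, 3.25 in WT replicate 2, 2.46 in Din-KO replicate 1 and 3.06 for Din-KO replicate 2, over 12 to 25 cells each.

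**Figure D3:**
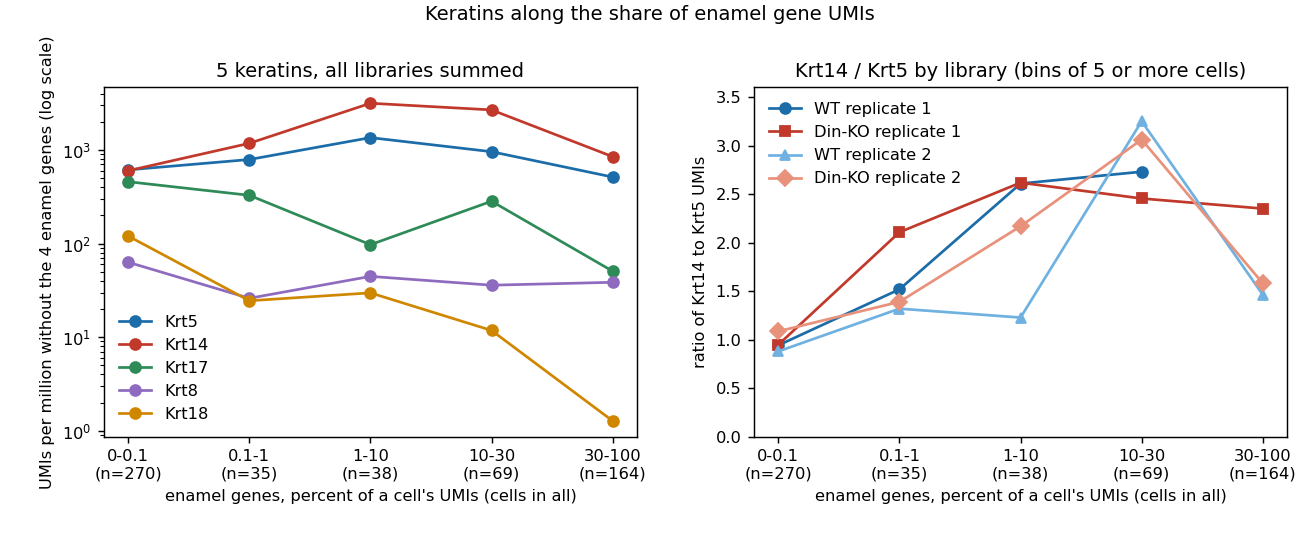
Left, levels of 5 keratins (log axis) in epithelial cells grouped by the percent of UMIs from 4 enamel genes, summed over libraries. Right, Krt14 per Krt5 UMI in each library for groups of 5 or more cells, which was near 1 at the left end and highest between 1% and 30%.

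Sub-clusters of the 576 cells, formed without keratins and the 4 enamel genes, placed the keratins among the cell states of the tooth. A group led by Col14a1, Igfbp5 and Igfbp2 (E1, 61 cells) held most Krt15, with 399 CPM against 0 to 98.0 CPM in the other 11 groups. It had the highest Sfrp5 (288 CPM, against 122 CPM in E2), a marker of the outer cervical loop. It also expressed Alpl (230 CPM), a marker of the stratum intermedium, but Alpl was higher in E8 (773 CPM). Other progenitor and outer-layer markers were mixed. Igfbp5, Lrig1 and Rab3il1 were highest in E1, whereas Sox2, Shh, Notch1, Cldn10 and Vat1l were higher in E2. The layer that E1 came from was not tested. Krt15 was found in 54.5% of E1 cells in WT replicate 1, 20% in WT replicate 2, 66.7% in Din-KO replicate 1 and 14.3% for Din-KO replicate 2. The same group was low in Krt18. It had 31.8, 17.9, 14.4 and 8.93 CPM in WT replicate 1, WT replicate 2, Din-KO replicate 1 and Din-KO replicate 2. The cycling group led by Hist1h1b and Top2a (E4, 77 cells) had 139, 65.0, 190 and 138 CPM, and a group led by Igfbpl1 and Cdo1 (E0, 62 cells) had 177, 149, 178 and 108 CPM. In both of these Krt18 was above its level in E1 in all 4 libraries.

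Summed over libraries, the lowest Krt5 and Krt14 among the groups without enamel genes was in the cycling group, at 360 and 367 CPM. This did not hold in each library. In Din-KO replicate 1, E2 had 372 CPM of Krt5 and 210 CPM of Krt14, against 399 and 322 CPM in the cycling group. In Din-KO replicate 2, E0 had 231 CPM of Krt5, against 387 CPM in the cycling group. The highest Krt14 of all groups was in a group led by Dspp (E5, 56 cells, median enamel share 10.3%), at 2588 CPM. Dspp encodes dentin sialophosphoprotein and is also transcribed by young ameloblasts. A group led by Odam, Amtn and Klk4, genes of the maturation stage of ameloblasts (E8, 49 cells, enamel share 20.5%), had 1901 CPM of Krt14, 678 CPM of Krt5 and the highest ratio, 2.80. Groups with the highest enamel shares (E7, E9, E10 and E11, 40.7% to 49.6%) had 409 to 559 CPM of Krt14 and 222 to 365 CPM of Krt5. E7, E9 and E11 each came mostly or wholly from 1 library, so a library and a cell state cannot be told apart there. A group of 21 cells (E6) was led by the mesenchymal genes Sfrp2, Col3a1 and Col1a1 and had 483 CPM of Krt14 and 74.2 CPM of Krt17. Neither was the lowest among the groups.

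**Figure D4:**
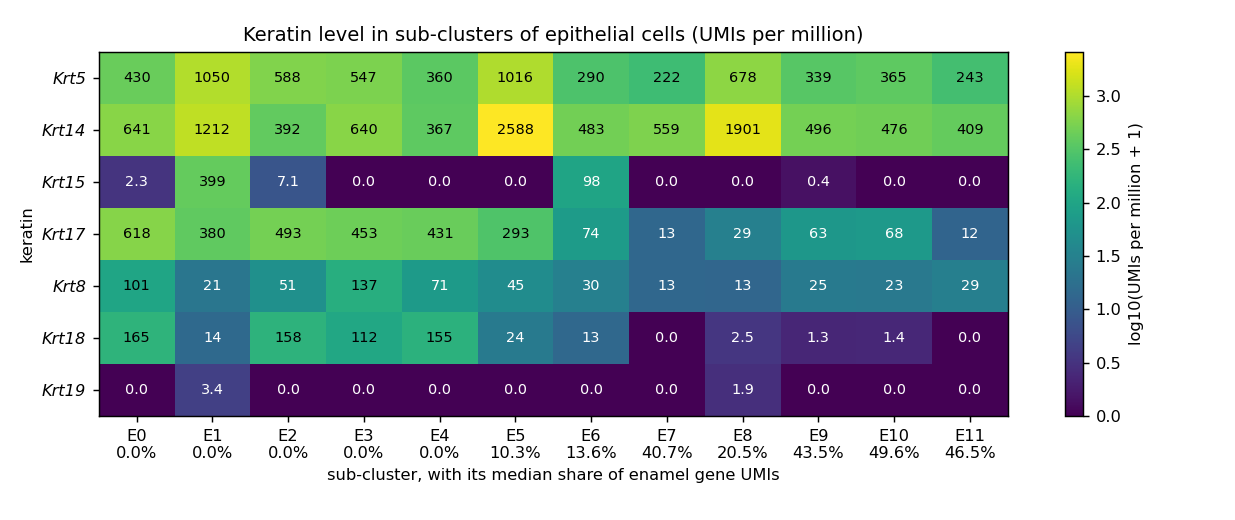
Level of each keratin in 12 sub-clusters of epithelial cells, as numbers in CPM and as colour on a log10 scale, with the median enamel gene share under each sub-cluster. Krt15 was concentrated in E1, Krt14 was highest in E5 and E8, and Krt18 was high in E0, E2, E3 and E4.

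Per cell, Krt5 and Krt14 were found in most epithelial cells. Krt14 had a UMI in 98.2% ± 1.46 of enamel-secreting and 89.6% ± 5.48 of other cells (SD, n = 4), and Krt5 in 95% ± 0.653 and 85.2% ± 12.8. UMIs of both were in 92.8% to 95.5% of enamel-secreting cells and in 62.5% to 92% of other cells, lowest in the shallow cells of WT replicate 2. Krt17 was found in 34.8% ± 26.8 of enamel-secreting and 79.2% ± 6.25 of other cells, and Krt18 in 12.8% ± 8.33 and 50.1% ± 14.8. Krt8 was found in 41.2% ± 2.85 and 39.5% ± 14.6, with no separation of the classes. Enamel-secreting cells were deeper, with medians of 20520 to 28945 UMIs against 4764.5 to 16160.5. With every cell thinned to 2000 UMIs, Krt14 was found in 76.1% ± 16.3 and 61.7% ± 5.77, Krt5 in 57.3% ± 8.03 and 51.6% ± 9.91, Krt17 in 11.0% ± 11.0 and 43.2% ± 2.09, Krt18 in 2.14% ± 2.03 and 19.2% ± 4.64, and Krt8 in 4.17% ± 0.465 and 14.4% ± 2.95. Thinning dropped 2 cells of WT replicate 1. Macrophage-like cells, which should lack keratins, gave thinned shares of 0.692% ± 0.505 for Krt14, 0.468% ± 0.366 for Krt5, 0.386% ± 0.544 for Krt17, 0.0540% ± 0.108 for Krt8 and 0 for Krt18. The thinned share of Krt18 in enamel-secreting cells ranged from 0 to 4.55% and overlapped that of mesenchyme-like cells (0.271% to 6.61%). Krt15 was in 0 thinned enamel-secreting cells and in 3.36% to 10.0% of other cells.

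**Figure D5:**
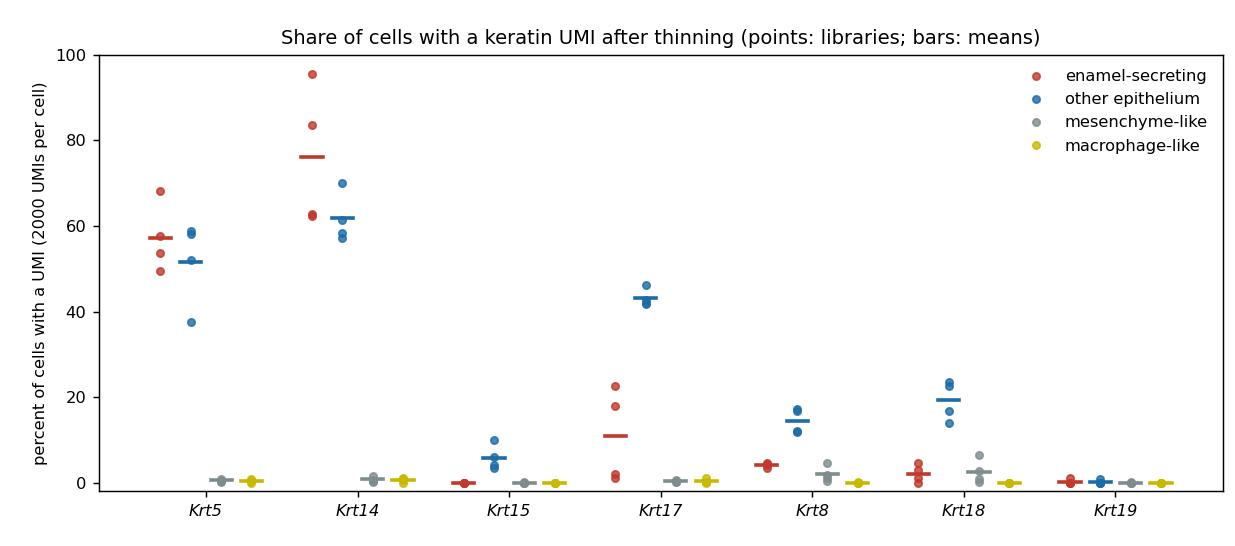
Percent of cells with a UMI of each keratin after every cell was thinned to 2000 UMIs, by library (points) and as the mean of 4 libraries (bars), in 2 epithelial classes, mesenchyme-like and macrophage-like cells. Krt5 and Krt14 were shared by both epithelial classes, and the mean thinned shares of Krt17, Krt8 and Krt18 were lower in enamel-secreting cells, although unthinned shares of Krt8 overlapped and its level was not called with TMM factors. The 2000 UMIs include those of enamel genes.

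Din-KO did not differ from WT in any keratin past the threshold. In all epithelial cells 0 of 6 members were called, and 0% of all 11478 genes were called by edgeR (15 lower and 129 higher had an unadjusted p under 0.05, and DESeq2 called 1 lower and 6 higher). In enamel-secreting cells 0 members and 0% of 11236 genes were called (36 lower and 170 higher under an unadjusted 0.05, and 0 and 3 by DESeq2). In other epithelial cells 0 members and 0% were called (80 lower and 155 higher under an unadjusted 0.05, and 1 and 1 by DESeq2). Member log2 differences ranged from -0.25 to 0.16 (SE 0.30 to 0.96) in all epithelial cells. With 2 libraries a genotype, the smallest two-sided p of an exact permutation test is 0.33. Y-linked transcripts were found in 92 of 177 and 44 of 135 epithelial cells of Din-KO but in 0 of 143 and 0 of 121 of WT, so genotype and sex cannot be told apart.

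Krt5 and Krt14 were compared between genotypes in other epithelial cells. Krt5 had 696 and 700 CPM in Din-KO and 535 and 447 CPM in WT, a log2 difference of 0.48 (SE 0.31, edgeR adjusted p = 1). Krt14 had 696 and 825 CPM in Din-KO and 519 and 428 CPM in WT, a log2 difference of 0.66 (SE 0.40, edgeR adjusted p = 1). On TMM-scaled levels these 2 of 6 members were higher in both Din-KO libraries than in both WT libraries, as were 16.8% of all genes, and 0 members were lower in both, against 14% of all genes. E1, with 1050 CPM of Krt5 and 1212 CPM of Krt14, held 24 and 21 cells of Din-KO and 11 and 5 of WT. In Din-KO replicate 2, 1 cell held 239 of 1251 Krt5 and 285 of 1473 Krt14 UMIs. Without it the levels there were 610 and 716 CPM. The part of cell make-up in these levels was not tested. In enamel-secreting cells Krt8 was lower in both Din-KO libraries (30.7 and 32.1 TMM-scaled CPM) than in both WT libraries (48.3 and 33.6), a pattern of 9.36% of all genes. Its log2 difference was -0.36 (SE 0.56, edgeR adjusted p = 1). No member was higher in both, against 12.2% of all genes. Krt17 in enamel-secreting cells had a log2 difference of 0.73 (SE 0.84, edgeR adjusted p = 1) that turned to -1.09 without Din-KO replicate 1. Krt15 in other cells was -1.45 (SE 1.10, edgeR adjusted p = 1) and turned to 2.29 without WT replicate 2, where 1 cell held all its UMIs.

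The genotype effect was also compared between the 2 classes within libraries. For Krt5 the difference of effects, enamel-secreting minus other, was -0.55 (SE 0.29) and for Krt14 -0.70 (SE 0.38), with unadjusted edgeR p-values of 0.106 and 0.109 and adjusted p-values of 1. Among all genes 0% were called (72 lower and 125 higher had an unadjusted p under 0.05, and DESeq2 called 0). The Krt14 per Krt5 ratio of enamel-secreting cells overlapped between genotypes, at 2.73 and 1.94 in WT and 2.48 and 2.22 in Din-KO.

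Some other keratin genes were as abundant as the rarer members. Of 46 further genes, 28 had a UMI in epithelial cells and 6 had at least 50. By UMIs the leading 5 were Krt10 (655), Krt27 (498), Krt80 (350), Krt6a (222) and Krt25 (173). In enamel-secreting cells Krt27 held 438 UMIs over the 4 libraries, more than Krt8 or Krt18. Krt27 and Krt25, type I chains of the hair follicle's inner root sheath, were higher in enamel-secreting cells. Krt27 had 211, 24.0, 74.4 and 20.5 CPM there in WT replicate 1, WT replicate 2, Din-KO replicate 1 and Din-KO replicate 2, against 17.3, 22.0, 4.32 and 4.48 CPM in other cells, a log2 difference of 3.54 (SE 0.49, edgeR adjusted p = 0.00136). Its WT replicate 2 levels were nearly equal on this scale. Krt25 had 172 of its 173 UMIs in enamel-secreting cells, in 18 epithelial cells in all, with 1.4, 14.2, 0 and 47.0 CPM in the same order (edgeR adjusted p = 0.000405). Krt10, a type I chain of suprabasal skin, had 23.0 to 40.7 CPM in enamel-secreting and 56.0 to 73.4 CPM in other cells and was not called (-0.22, SE 0.17, edgeR adjusted p = 0.351). Krt80 was not called either (0.99, SE 0.68, edgeR adjusted p = 0.299). Krt6a, which has near-identical neighbours, lay in 15 cells, 97 of its 222 UMIs in 1 of them, and was not called (edgeR adjusted p = 0.153). Of the 6 genes 2 were called higher and 1, Krt1, lower, against 17.1% of all genes in each direction. Krt25 passed the filter on low counts only through enamel-secreting cells and Krt1 only through other cells. The direction of those calls was therefore largely set in advance.

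Calls among genes that anchor keratins were about as frequent as among all genes. Of 18 adhesion and keratin anchoring genes 16 were tested, 3 were lower and 4 were higher in enamel-secreting cells, against 17.1% of all genes in each direction, and their median log2 difference was 0.39, against -0.06 for all genes. The desmosomal cadherin Dsc3 (-4.04, SE 0.45, edgeR adjusted p = 0.000498) and the desmosomal plakin Dsp, which ties keratins to the desmosome (-2.39, SE 0.30, edgeR adjusted p = 0.000815), were the lowest. Dsp had 19.7, 19.6, 35.1 and 51.9 CPM in enamel-secreting cells of WT replicate 1, WT replicate 2, Din-KO replicate 1 and Din-KO replicate 2, and 306, 202, 316 and 231 CPM in other cells. The hemidesmosomal plakin Dst (1.74, SE 0.20, edgeR adjusted p = 0.000519) and the desmosomal protein Perp (1.51, SE 0.20, edgeR adjusted p = 0.00101) were the highest. Of 7 other intermediate filament and lamin genes 5 were tested, with a median of 0.22, and only Lmna, the A-type lamin, was called (0.69, SE 0.18, edgeR adjusted p = 0.0202). Its level in CPM, without TMM factors, was lower in enamel-secreting cells of WT replicate 2 and Din-KO replicate 2.

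Of 14 regulators of epithelial and keratin genes 9 were tested, 4 were lower and 1 was higher, against 17.1% of all genes in each direction, and their median was -0.40, against -0.06 for all genes. The progenitor factor Sox2 (-5.88, SE 0.68, edgeR adjusted p = 0.000554) and the grainyhead factor Grhl2 (-5.82, SE 0.61, edgeR adjusted p = 0.000391) were the lowest, both with at most 1 enamel-secreting library above 0. Sox2 and Grhl2 passed the filter on low counts only through other cells, so their lower calls were largely set in advance. Ovol2 was higher (1.24, SE 0.35, edgeR adjusted p = 0.0283). The p63 gene Trp63, a regulator of Krt5 and Krt14, was not called (-0.39, SE 0.17, edgeR adjusted p = 0.114). Perp, Dsp, Pkp1 and Trp63 were also among the markers that named the epithelial clusters.

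Likeness of pattern was measured as Pearson's r of log2(CPM + 1) over 36 sums of cells, from 11 cell classes in up to 4 libraries, which share libraries and depth. Krt5 was most like Esrp1 (r = 0.97), Isl1 (0.96) and Prdm6 (0.96). Krt14 was most like Urah (0.96), Crb3 (0.96) and Plek2 (0.95). Krt17 had a pattern like that of the epithelial genes Epcam (0.94) and Shh (0.94). Esrp1 and Epcam were also among the markers that named the epithelial clusters. Their high r with a keratin was therefore partly set by how the classes were named. Krt18 was most like Vwde (0.88), Ly6h (0.86) and Krt8 (0.84), and Krt8 was most like Tulp2 (0.90), Prdm6 (0.87) and Ntf5 (0.87). Krt15 was most like Dsc3 (0.89), Barx2 (0.86) and Ly6h (0.83). Krt19, at a few UMIs in all, reached 0.78 with Adgrf4, 0.74 with Cdcp1 and 0.74 with Ly6h.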

How the data were processed

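Deposited values were raw UMI counts of genes in each barcode for 4 libraries, which the authors made with Cell Ranger 6.0.2 against mm10/GRCm38, with no normalization. Barcodes were kept (11310 of 20502) if they had 1000 genes or more, with mitochondrial UMIs up to 10% and hemoglobin UMIs up to 3%. Seurat 5.3.0 integrated and clustered them (2000 variable genes without keratins, 30 components, resolution 1). Clusters were named from marker lists holding no keratin, with a scoring rule set with the data in hand, and 3 of 33 stayed unnamed. Scrublet marked 0.946% of cells as doublets, 0.0874% in Din-KO replicate 1, and none was removed. Sub-clusters came from scanpy 1.11.5.

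UMIs were summed per library and class (at least 10 cells) and tested in edgeR 4.0.16 (TMM, filter on low counts, quasi-likelihood, Benjamini-Hochberg at 0.05). The class comparison had library as a term. Replicate numbers follow the sample titles, from which some library and file names differ. The methods were tested on simulated data. DESeq2 1.42.0, other size factors, filters, cell selections, enamel thresholds of 0.3% and 5% and each library left out were alternatives. Free RNA was not removed, and exact 95% intervals and floors cover counting error only. Named genes were the 7 members, the 5 most abundant other keratins, the 2 highest and 2 lowest called genes of each list, and the 3 genes most like each member (1 of those for Krt17 is not reported here); others were named after their values were seen. The members and lists were chosen with earlier results of these data known.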

Additional observations from a re-analysis of the deposited data

Results flagged for a closer look

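Keratin UMIs were also found in cells outside the epithelium. Krt18 had a mean of 11.8 CPM in mesenchyme-like cells, with 11.1 and 2.86 CPM in WT replicate 1 and WT replicate 2 and 28.2 and 4.98 CPM in Din-KO replicate 1 and Din-KO replicate 2. Krt8 had a mean of 8.65 CPM there, with 7.94, 2.43, 19.6 and 4.58 CPM in the same order. They stood out because every library was above its macrophage-like cells, which had 0 to 0.862 CPM of Krt18 and 0 to 0.382 CPM of Krt8. In enamel-secreting cells Krt18 was at 2.84 to 12.6 CPM, which overlapped the range of the mesenchyme-like cells. Groups of 2 libraries are too small for a test of outlying samples.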

How the results depend on the processing

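In the class comparison Krt14, Krt15 and Krt18 kept direction and call under all 18 alternatives, at log2 differences of 1.12 to 2.49, -10.04 to -4.34 and -3.97 to -2.72. For Krt15 this was largely set in advance, since nearly all its UMIs lay in other cells. Without the library term (no replicate block) 3 members were called in place of 5, since Krt5 (0.60, edgeR adjusted p = 0.0578) and Krt17 (-1.33, edgeR adjusted p = 0.0918) were lost. Krt5 also lost its call at an enamel threshold of 5% (0.44, edgeR adjusted p = 0.118). Without normalization factors, a setting chosen after seeing the data as was leaving out the cells between 0.3% and 5%, Krt5 turned to -0.069. Krt8 turned to 0.45 with cells chosen one by one and ranged from -0.48 to 0.20 when a library was left out. With the replicate number as a block 0 members and 0 genes were called in each genotype comparison. Same-numbered libraries deviated together (correlations of 0.52, 0.51 and 0.32 in all, enamel-secreting and other cells), but with 2 pairs this does not show pairing. The library names take 1 form in each pair, and no source used here says whether that marks a batch. Without the highest doublet scores Krt15 in other cells turned to 2.51 between genotypes, and with a library left out it ranged from -2.43 to 2.29, and Krt17 in enamel-secreting cells from -1.09 to 1.51. In CPM computed without the 4 enamel genes, Krt5 and Krt8 in enamel-secreting cells were at 796 and 40.2 in place of 577 and 29.2. Thinning to 2000 UMIs moved the shares of enamel-secreting cells to 57.3% (Krt5), 76.1% (Krt14), 4.17% (Krt8) and 2.14% (Krt18), and of other cells to 51.6% (Krt5), 61.7% (Krt14), 43.2% (Krt17), 14.4% (Krt8), 19.2% (Krt18) and 0.210% (Krt19), as fewer UMIs must. The causes of the other shifts were not tested. Without a filter on low counts edgeR called 9 genes lower and 68 higher between genotypes in enamel-secreting cells, and 12 and 44 in other cells, against 0, none of them a member.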
